A study of Mus musculus with 4 samples.

Results

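The T cell receptor complex and the proteins that carry its first signals were described here in cells labelled CD8+ from B16-GP33 tumours at day 21, a melanoma of mouse origin whose cells carry GP33, an epitope of lymphocytic choriomeningitis virus. The set was a fixed list of 41 genes, out of 24537 in the deposited table, chosen by name: the CD3 and CD8 chains, 3 accessory surface receptors, proximal kinases, adaptors, effector enzymes, calcium and NFAT genes, and phosphatases and negative regulators. All 41 were rows of the table, and 40 reached a mean of 1 FPKM over the 4 libraries, which was the minimum for testing. FPKM scales the sequenced fragments of a gene to its exon length and to the depth of the library. Pag1, the membrane adaptor that anchors the inhibitory kinase CSK, stayed below that minimum, at 0.574 and 0.700 FPKM in ACSS2NLS and 0.565 and 0.655 FPKM in EV.

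The groups were 2 libraries labelled ACSS2NLS and 2 labelled EV, the control. ACSS2 is the nuclear and cytosolic enzyme that makes acetyl-CoA from acetate, and NLS usually abbreviates a nuclear localisation signal. All 4 libraries came from tumour-bearing mice and carried the cell type label CD8+. The labels give no strain, age or number of mice and do not say how ACSS2NLS was introduced, and no library carried ACSS2 without the signal. Nothing in the labels says that replicates are separate mice, so every p-value given here reflects the spread of these 4 libraries alone, and that spread may be technical.

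A T cell recognises a peptide on MHC through its TCR alpha and beta chains, which have almost no cytoplasmic part. The CD3 delta, epsilon, gamma and zeta chains carry the signal: LCK, held at the CD8 or CD4 coreceptor, phosphorylates their ITAM motifs, ZAP70 docks there and phosphorylates the adaptors LAT and SLP-76, and these recruit PLC-gamma1, which opens the calcium-NFAT, RAS and NF-kappaB branches. Phosphatases, ubiquitin ligases, SLAP proteins and diacylglycerol kinases restrain each step, and in exhausted T cells of tumours and chronic infection persistent TCR signalling is a known driver of the state. All values here are of RNA, so receptor density and phosphorylation were not measured.

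Acss2 checked the labels first. It stood at 80.7 and 86.3 FPKM in ACSS2NLS, against 3.66 and 3.92 FPKM in EV. The least covered of the 41 genes had 214 tags in its lowest library. The CD8 T cell markers were high everywhere: 6 of the 7 listed were in the table, summing to 1272 and 1019 FPKM in ACSS2NLS and 1322 and 1123 FPKM in EV. The 8 markers of CD4 and regulatory T cells summed to 225 and 219 FPKM in ACSS2NLS and 286 and 335 FPKM in EV, with 5 of the 8 averaging more in ACSS2NLS. Most of each sum was Tnfrsf18 and Tnfrsf4, activation receptors that CD8+ T cells can also express. Tnfrsf18 was at 142 and 122 FPKM in ACSS2NLS and 185 and 203 FPKM in EV, and Tnfrsf4 at 52.9 and 50.9 FPKM in ACSS2NLS and 68.5 and 87.2 FPKM in EV. Cd4 stood at 1.61 and 2.22 FPKM in ACSS2NLS and 1.11 and 2.40 FPKM in EV, and Foxp3 averaged 3.37 FPKM in ACSS2NLS and 3.05 FPKM in EV. Transcripts of other tumour cells were also present. The 23 myeloid markers summed to 650 and 1987 FPKM in ACSS2NLS replicates 1 and 2 and to 296 and 1330 FPKM in EV replicates 1 and 2, with 18 of them averaging more in ACSS2NLS. The 10 melanoma markers summed to 15.1 and 200 FPKM in ACSS2NLS and to 8.08 and 51.0 FPKM in EV, with all 10 averaging more in ACSS2NLS. None of the melanoma markers was at 0 in any library, and of the myeloid markers only S100a9 was, in ACSS2NLS replicate 1. The 6 B cell markers summed to at most 3.21 FPKM in any library, and Pax5 and Ebf1 were at 0 in replicate 1 of each group. In bulk libraries such as these, fewer T cells and less RNA per T cell cannot be told apart.

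Transcript levels of the TCR machinery differed little between ACSS2NLS and EV libraries, with group means within 2-fold for each of the 40 genes tested of the set. Trac, Trbc1 and Trbc2, the constant genes of the TCR alpha and beta chains, were not in the table and have no values here. No gene of the set passed the test (limma-trend, 0 of 40 in either direction at an adjusted p under 0.05). Over all 9810 genes tested, 0.0204% passed upward, Acss2 and its antisense neighbour Acss2os, and 0% passed downward. Whether reads of Acss2 were also counted for Acss2os was not tested. With a term for the replicate number added to the fit, 229 genes passed upward and 172 downward, none of them of the set. The labels do not say that these numbers pair libraries, and there were 2 pairs. Log2 changes, ACSS2NLS minus EV on the log2(FPKM + 1) scale, ran between -0.33 for Malt1 and 0.35 for Cd5, and none exceeded 0.5 in size. On that scale, the 95% interval of the change lay within 2-fold either way for 40 of 40 genes, against 91.7% of all genes tested. It lay within 1.5-fold for 25 of 40, against 58.8%. Adding 1 to each FPKM narrows these folds for genes of low level, such as Sos1, at a mean of 1.11 FPKM. At an unadjusted p under 0.05, 1 of the 40 was higher, Cd5, where 3.1% of all genes were, and 2 were lower, Malt1 and Sla, where 2.87% were.

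**Figure D1:**
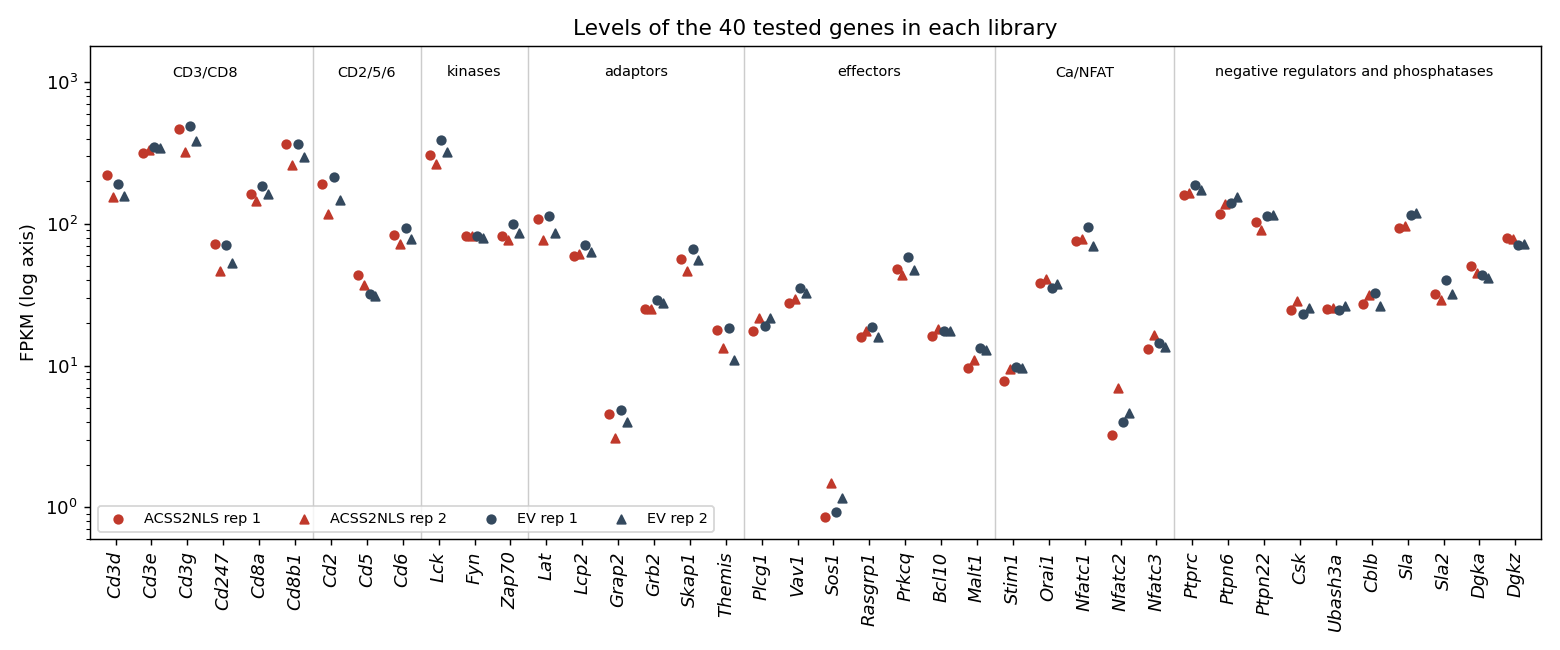
Level of each of the 40 tested genes (FPKM, log axis) in the 4 libraries, with ACSS2NLS in red left of EV in dark blue, circles for replicate 1 and triangles for replicate 2. Levels span Sos1, at a mean of 1.11 FPKM, to Cd3g, at 416 FPKM, and no log2 change between the groups exceeds 0.5 in size.

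Within this narrow range, more genes of the set lay lower in ACSS2NLS than higher. The mean was lower for 28 of 40 genes (70%), against 46.8% of all genes tested. The median log2 change was -0.11, against 0.015 over all genes, and with quantile normalization these medians were -0.061 and -0.002. Both ACSS2NLS libraries lay below both EV libraries for 13 of the 40 (32.5%), where 18.1% of all genes did. These were Cd3e, Cd8a, Lck, Zap70, Lcp2, Grb2, Vav1, Malt1, Stim1, Ptprc, Ptpn6, Ptpn22 and Sla. Both lay above for 4 of 40 (10%), namely Cd5, Orai1, Dgka and Dgkz, where 19.3% of all genes did. A stricter class required the difference of the group means to exceed the gap between replicates in both groups. It held 9 genes in the lower direction (22.5%, against 12.2% of all genes) and 3 in the higher (7.5%, against 12.9%). Above a minimum mean of 5 FPKM, where 51.6% of all genes were lower, 73% of the 37 remaining genes of the set were. These counts describe the set and are not a test of it.

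Expressed relative to the mean log2 level of the 4 CD3 chains in the same library, a scaling added after the values were seen, the number lying below EV in both libraries was 5 in place of 13, and 4.53% of all genes did so. The 4 chains are themselves among the 40 genes, and without the scaling the share of all genes was 18.1%. Cd3d, Cd3g and Cd247 differed between replicates, and the scaling shifts every other gene by a part of that difference. On that scale the median log2 change was 0.081 over all genes and -0.042 over the 40. These counts also depended on single libraries. With 1 library left out, which makes an overlap less likely, the number below was 14 of 40 without EV replicate 1, 26 without EV replicate 2, 24 without ACSS2NLS replicate 1 and 18 without ACSS2NLS replicate 2, where the shares of all genes were 28.6%, 31.4%, 31.6% and 39.4%. The number above was 9, 6, 10 and 7 in the same order, where the shares of all genes were 30.9%, 35.4%, 43.4% and 33.9%. Without EV replicate 1 the median log2 change of the 40 genes was -0.026, and 57.5% of them were lower in mean, against 49.1% of all genes.

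**Figure D2:**
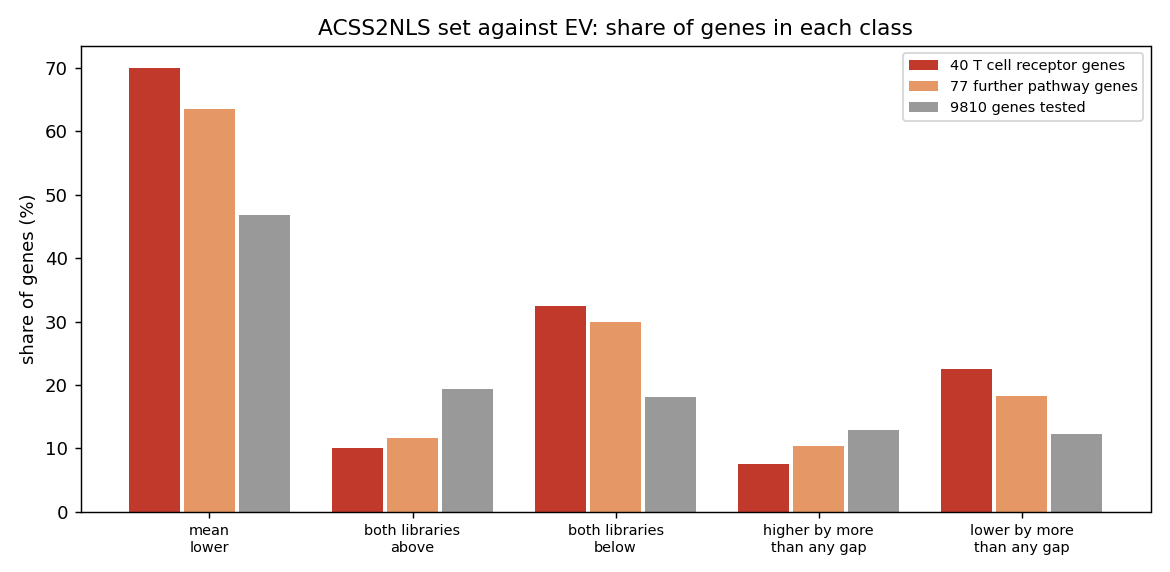
Share of genes (%) with a lower mean in ACSS2NLS, with both ACSS2NLS libraries above or below both EV libraries, and with a difference larger than the replicate gap of either group. Bars start at 0 and stand for the 40 genes of the set, 77 further genes of the pathway and all 9810 genes tested; the set has 70% with a lower mean, against 46.8% of all genes.

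The chains of the receptor were among the most abundant transcripts of the set. Of the 40 genes, 11 averaged 100 FPKM or more, as did 2.76% of all genes tested. Cd3g, which encodes CD3 gamma, was the most abundant, at 464 and 321 FPKM in ACSS2NLS and 492 and 386 FPKM in EV. Cd3e, which encodes CD3 epsilon, stood at 315 and 332 FPKM in ACSS2NLS, against 346 and 344 FPKM in EV. The groups did not overlap for Cd3e, but the difference was small (log2 change -0.091 ± 0.15 SE, n = 2 per group; limma adjusted p = 0.92). Cd3d, which encodes CD3 delta, was at 223 and 154 FPKM in ACSS2NLS and 192 and 158 FPKM in EV. Cd247, the gene of the zeta chain, had the lowest level of the 4, at 71.7 and 46.3 FPKM in ACSS2NLS and 70.8 and 53.0 FPKM in EV. For Cd3d, Cd3g and Cd247 the groups overlapped, and the 2 libraries of a group differed from each other by more than the groups did.

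The coreceptor genes were as abundant. Cd8b1, the beta chain, stood at 365 and 259 FPKM in ACSS2NLS and 368 and 295 FPKM in EV, and the groups overlapped. Cd8a, the alpha chain that binds LCK, was at 161 and 145 FPKM in ACSS2NLS and 186 and 161 FPKM in EV. Its groups met without overlapping, and its log2 change was -0.18 ± 0.15 (limma adjusted p = 0.846). The 6 receptor and coreceptor genes split into 1 with a higher and 5 with a lower mean; their median log2 change was -0.10.

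Among the accessory receptors, Cd5 stood apart from its neighbours. CD5 is a scavenger-type receptor that dampens TCR signals and whose level is known to follow TCR signal strength in thymocytes. Cd5 was at 43.9 and 37.1 FPKM in ACSS2NLS, against 31.8 and 30.9 FPKM in EV. Both ACSS2NLS libraries exceeded both EV libraries, by 29.1% in mean (log2 change 0.35 ± 0.13, interval 0.04 to 0.67; limma adjusted p = 0.81). It did not pass over all genes tested. Cd6, its paralogue, which lies 50364 bases away on chromosome 19 on the same strand, was at 83.2 and 71.7 FPKM in ACSS2NLS and 93.1 and 77.6 FPKM in EV, with overlapping groups (log2 change -0.14 ± 0.15). The ratio of Cd5 to Cd6 within a library was 0.527 and 0.518 in ACSS2NLS and 0.342 and 0.398 in EV, a pair chosen after the values were seen. Cd2, the adhesion receptor for CD48 in mice, was at 191 and 117 FPKM in ACSS2NLS and 215 and 147 FPKM in EV (log2 change -0.25 ± 0.30). Its replicates lay further apart than its group means.

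The windows before the start sites of 4 of these genes are shown because the genes sit beside each other or lie toward the ends of the range of log2 changes: Cd3d and Cd3g, which are transcribed away from each other across 1354 bases of chromosome 9, Cd5, with the highest log2 change of the set, and Lck, which has 2 start sites and the lowest log2 change of the kinases. Each is the 250 bases before the gene start, read in the direction of transcription, from RefSeq on GRCm38.p6, which is mm10. Capitals mark matches on either strand to 4 short motifs: GGAAGT, the core of ETS factors, TGTGGT of RUNX, CTTTGA of TCF1 and TATAAA, the TATA box.

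Cd3d, chr9:44981536-44981785, plus strand: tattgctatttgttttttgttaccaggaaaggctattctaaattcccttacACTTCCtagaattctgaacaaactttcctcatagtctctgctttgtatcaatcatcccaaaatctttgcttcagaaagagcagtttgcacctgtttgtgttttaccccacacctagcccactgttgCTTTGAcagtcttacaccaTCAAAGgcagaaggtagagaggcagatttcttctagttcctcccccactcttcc

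Cd3g, chr9:44980432-44980681, minus strand: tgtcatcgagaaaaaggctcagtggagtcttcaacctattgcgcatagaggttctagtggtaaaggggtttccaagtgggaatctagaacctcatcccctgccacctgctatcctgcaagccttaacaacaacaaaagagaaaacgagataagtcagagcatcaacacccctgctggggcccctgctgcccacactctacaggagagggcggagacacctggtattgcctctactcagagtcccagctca

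Cd5, chr19:10738975-10739224, minus strand: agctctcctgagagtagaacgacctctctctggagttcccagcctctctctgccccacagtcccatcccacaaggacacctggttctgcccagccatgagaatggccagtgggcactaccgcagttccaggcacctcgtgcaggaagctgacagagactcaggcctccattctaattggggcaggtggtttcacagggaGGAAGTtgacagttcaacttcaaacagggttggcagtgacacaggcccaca

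Lck, upstream start site, chr4:129573642-129573891, minus strand: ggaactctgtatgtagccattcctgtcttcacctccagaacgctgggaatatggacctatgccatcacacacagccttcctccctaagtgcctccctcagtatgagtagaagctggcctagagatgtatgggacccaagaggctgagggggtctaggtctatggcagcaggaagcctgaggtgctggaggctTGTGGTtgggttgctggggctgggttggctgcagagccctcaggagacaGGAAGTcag

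Lck, downstream start site, chr4:129558373-129558622, minus strand: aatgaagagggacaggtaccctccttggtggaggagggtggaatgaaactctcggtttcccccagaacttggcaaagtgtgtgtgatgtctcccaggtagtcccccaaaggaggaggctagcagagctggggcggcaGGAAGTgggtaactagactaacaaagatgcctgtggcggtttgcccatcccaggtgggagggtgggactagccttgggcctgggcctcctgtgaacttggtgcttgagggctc

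The GGAAGT motif occurred in the windows of Cd3d, Cd5 and both starts of Lck. It was not found in the Cd3g window. The Cd3d window also held the CTTTGA motif at 2 places, the upstream Lck window held TGTGGT, and none of the 5 windows held TATAAA. The deposited Lck row counts the transcript that begins at the downstream site, and the upstream site lies 15269 bases before it. Of the set, 33 genes had a window, with 47 windows in all since some genes have several starts. Chromosome 18, which holds Malt1 and Nfatc1, was left out, and Cd2, Cd6, Cd8b1, Skap1, Sla and Pag1 had no window. GGAAGT was in 38.3% of these windows, against 19.7% of 32851 windows of all genes. The windows of all genes were not filtered by chromosome or by level. The other motifs were in 10.6% (TGTGGT), 14.9% (CTTTGA) and 8.51% (TATAAA) of the windows of the set, against 14%, 13.8% and 12.4% of all windows. A match is a description of the letters and does not show that a factor binds.

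LCK starts the cascade, and its transcript had the largest difference of the 3 kinases. Lck was at 307 and 263 FPKM in ACSS2NLS, against 390 and 321 FPKM in EV. Both ACSS2NLS libraries lay below both EV libraries, by 19.9% in mean (log2 change -0.32 ± 0.18, limma adjusted p = 0.821). Fyn, the other SRC-family kinase of the complex, was almost level over the 4 libraries, at 82.5 and 81.9 FPKM in ACSS2NLS and 82.2 and 79.2 FPKM in EV (log2 change 0.026 ± 0.11). Zap70, the kinase that binds phosphorylated ITAMs, was at 82.2 and 76.9 FPKM in ACSS2NLS and 99.3 and 86.5 FPKM in EV (log2 change -0.22 ± 0.13, limma adjusted p = 0.822). The Zap70 values rest on a counted transcript of 1335 exon bases, while the annotated exons of the gene cover 2245 bases. None of the 3 kinases passed.

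**Figure D3:**
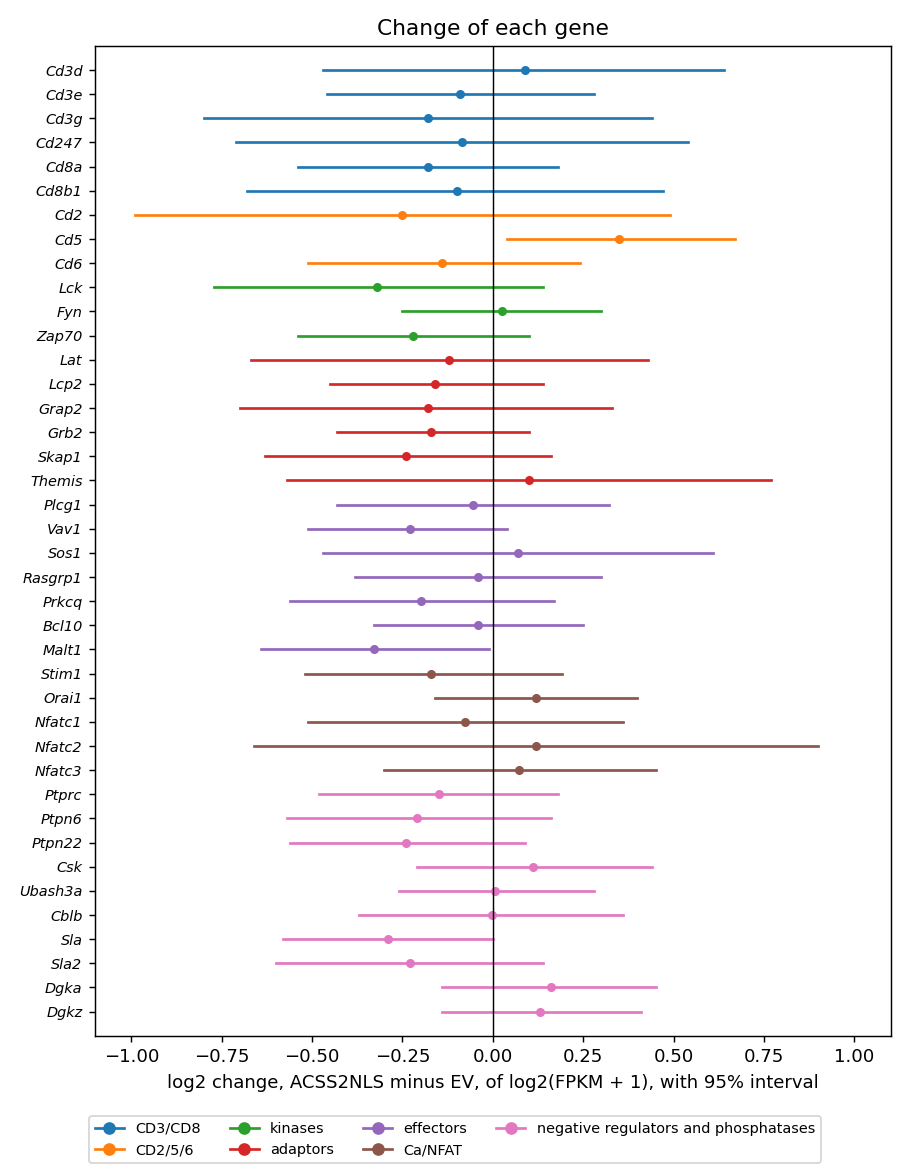
Log2 change of each gene, ACSS2NLS minus EV on the log2(FPKM + 1) scale (point), with its 95% interval from limma (line), coloured by role. The points lie between -0.33 and 0.35, and of the intervals that leave out 0, that of Cd5 lies above it and those of Malt1 and Sla end just below.

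Of the 6 adaptors none passed, 5 averaged lower and 1 averaged higher, around a median log2 change of -0.16. Lcp2, which encodes SLP-76, the scaffold that ZAP70 phosphorylates beside LAT, was at 59.5 and 61.0 FPKM in ACSS2NLS and 71.4 and 63.5 FPKM in EV. Grb2, the adaptor that brings the RAS activator SOS to LAT, was at 24.9 and 25.2 FPKM in ACSS2NLS and 28.8 and 27.7 FPKM in EV, and its groups lay further apart than its replicates (log2 change -0.17 ± 0.11). Skap1, which links TCR signals to integrin adhesion, was at 56.9 and 46.5 FPKM in ACSS2NLS and 66.8 and 55.3 FPKM in EV (log2 change -0.24 ± 0.16). The groups overlapped for Skap1, and likewise for Lat, Grap2 and Themis. Lat, the membrane scaffold, had a log2 change of -0.12 ± 0.22, Grap2, the GADS adaptor that joins SLP-76 to LAT, -0.18 ± 0.21, and Themis, an adaptor best known in thymocytes, 0.099 ± 0.27.

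Of the 7 effector enzymes, 6 averaged lower and 1 averaged higher. Malt1, the paracaspase that activates NF-kappaB with BCL10, had the lowest log2 change of the set. It was at 9.61 and 11.0 FPKM in ACSS2NLS, against 13.4 and 12.9 FPKM in EV, 21.6% lower in mean (log2 change -0.33 ± 0.13, interval -0.64 to -0.01; limma adjusted p = 0.81). Its partner Bcl10 was at 16.1 and 18.0 FPKM in ACSS2NLS and 17.4 and 17.7 FPKM in EV, and the groups overlapped (log2 change -0.042 ± 0.12). Vav1, the exchange factor for RAC and an actin regulator, was at 27.8 and 29.3 FPKM in ACSS2NLS and 35.1 and 32.5 FPKM in EV (log2 change -0.23 ± 0.11, limma adjusted p = 0.81). Both ACSS2NLS libraries lay below both EV libraries for Vav1 and Malt1. Prkcq, the protein kinase C theta gene, had a log2 change of -0.20 ± 0.15, Plcg1 -0.055 ± 0.15, and the RAS activators Rasgrp1 and Sos1 -0.040 ± 0.13 and 0.069 ± 0.21, all with overlapping groups. Rasgrp1 averaged 16.8 FPKM in ACSS2NLS and 17.4 FPKM in EV, and Sos1 was the least abundant tested gene, at 0.857 and 1.48 FPKM in ACSS2NLS and 0.930 and 1.17 FPKM in EV.

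Of the 5 genes of calcium entry and NFAT, 3 averaged higher and 2 averaged lower; their median log2 change was 0.07. Stim1, the calcium sensor of the endoplasmic reticulum, was at 7.73 and 9.48 FPKM in ACSS2NLS and 9.82 and 9.65 FPKM in EV (log2 change -0.17 ± 0.14). Orai1, the channel that STIM1 opens, was at 38.3 and 40.9 FPKM in ACSS2NLS and 35.0 and 37.7 FPKM in EV (log2 change 0.12 ± 0.11). The groups did not overlap for either gene, and the 2 differed in direction. Of the NFAT factors, which calcineurin sends to the nucleus, Nfatc1 was the most abundant, at 76.1 and 78.2 FPKM in ACSS2NLS and 95.1 and 69.6 FPKM in EV. Nfatc3 was at 13.1 and 16.6 FPKM in ACSS2NLS and 14.5 and 13.4 FPKM in EV. Nfatc2 was at 3.21 and 6.90 FPKM in ACSS2NLS and 3.99 and 4.66 FPKM in EV, and had the widest interval of the 40, with a log2 change of 0.12 and a range of -0.66 to 0.90. For all 3 NFAT genes the groups overlapped.

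Of the 10 tested phosphatases and negative regulators, 4 averaged higher and 6 averaged lower, so genes that restrain the TCR did not share a direction. Sla (chr15:66780819-66831829, minus strand, mm10) encodes the SLAP adaptor that targets CD3 zeta for degradation. It was at 93.7 and 97.0 FPKM in ACSS2NLS, against 115 and 118 FPKM in EV. Its replicates lay close together and its groups lay apart, by 18.4% in mean (log2 change -0.29 ± 0.12; limma adjusted p = 0.81). Its relative Sla2 was at 32.1 and 29.0 FPKM in ACSS2NLS and 40.2 and 32.0 FPKM in EV, with groups that overlapped (log2 change -0.23 ± 0.15). In the annotated transcript of Sla2, 17.9% of the exon bases are shared with Rab5if on the opposite strand, and reads of the 2 genes may not be told apart there. Other genes of the set share exon bases too, among them Skap1 (13.1%), Cd247 (12.1%), Cd3e (9.23%), Ptpn6 (8.79%) and Lcp2 (7.74%). The part of these overlaps in the values was not tested. Ptpn22, the phosphatase that acts on LCK and ZAP70, was at 104 and 90.2 FPKM in ACSS2NLS and 113 and 115 FPKM in EV (log2 change -0.24 ± 0.13, limma adjusted p = 0.812).

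Ptpn6, which encodes SHP-1, was at 118 and 139 FPKM in ACSS2NLS and 141 and 154 FPKM in EV. Ptprc, which encodes CD45, the phosphatase that both activates and limits LCK, was at 160 and 166 FPKM in ACSS2NLS and 188 and 174 FPKM in EV. For both genes, each ACSS2NLS library lay below each EV library. Myeloid cells express both genes too, and the myeloid marker sums given above had a higher mean in ACSS2NLS; their part in these values was not tested.

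The diacylglycerol kinases, which end the RASGRP1 and protein kinase C signals, lay on the other side. Dgkz was at 79.6 and 78.0 FPKM in ACSS2NLS, against 71.2 and 72.4 FPKM in EV (log2 change 0.13 ± 0.11). Dgka was at 50.6 and 45.1 FPKM in ACSS2NLS, against 43.8 and 41.6 FPKM in EV (log2 change 0.16 ± 0.12). Both ACSS2NLS libraries exceeded both EV libraries for each gene, and neither passed. The annotated transcript of Dgka shares 105 exon bases, 3.71% of its length, with the melanoma gene Pmel on the opposite strand. Pmel averaged 16.4 ± 18.7 FPKM in ACSS2NLS and 5.41 ± 6.52 FPKM in EV (SD, n = 2 each). In each group Dgka was lower in the library with more Pmel, which was also the library with more myeloid and melanoma transcripts. The part of the overlap in the Dgka values was not tested. Csk, the kinase that places the inhibitory phosphate on LCK, had a log2 change of 0.11 ± 0.13. Ubash3a, the phosphatase STS-2, and Cblb, a ubiquitin ligase that sets the activation threshold, had the smallest differences of the set, with log2 changes of 0.0069 ± 0.11 and -0.003 ± 0.15.

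The largest differences among these genes lay within the groups. In each group, replicate 2 was the library with more myeloid and melanoma transcripts, and 18 of the 40 genes were lower in it in both groups (45%), against 26.5% of all genes tested. In log2(FPKM + 1), replicate 2 minus replicate 1 had a median of 0.01 in ACSS2NLS and -0.11 in EV for the 40 genes. Over all genes tested these medians were 0.054 and 0.005. Cd2 was lower in replicate 2 by 0.71 in ACSS2NLS and by 0.54 in EV on the log2(FPKM + 1) scale, Cd247 by 0.62 and 0.41, and Cd3d and Cd3g by 0.53 each in ACSS2NLS and by 0.28 and 0.35 in EV. Cd3e, 11690 bases from Cd3d in the same gene cluster, had differences of 0.07 in ACSS2NLS and -0.01 in EV. Higher in replicate 2 in both groups were 9 of 40 (22.5%), against 34.9% of all genes, among them Nfatc2 and Sos1.

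Transcript length moved with these differences. The 7 genes whose counted transcript, as the file gives its length, has under 1500 bases of exon had median differences, replicate 2 minus replicate 1, of -0.49 in ACSS2NLS and -0.32 in EV. The 12 genes with at least 4000 bases had 0.16 and -0.11. Across the 40 genes, Spearman's rho between length and this difference was 0.59 in ACSS2NLS and 0.26 in EV, and over all 9810 genes it was 0.42 and 0.05; the points share their libraries and are given as a description. Between the groups, the rho of length with the log2 change was 0.19 over the 40 genes and -0.08 over all genes. The annotation used for exon overlaps gives other lengths for some genes. Grap2 and Vav1, counted here with at least 4000 bases, have 1294 and 2810 there. Cd3d and Zap70, counted with under 1500 bases, have 1617 and 2245, so the length groups depend on the transcript counted. The part of length or of other cells in any result here was not tested.

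**Figure D4:**
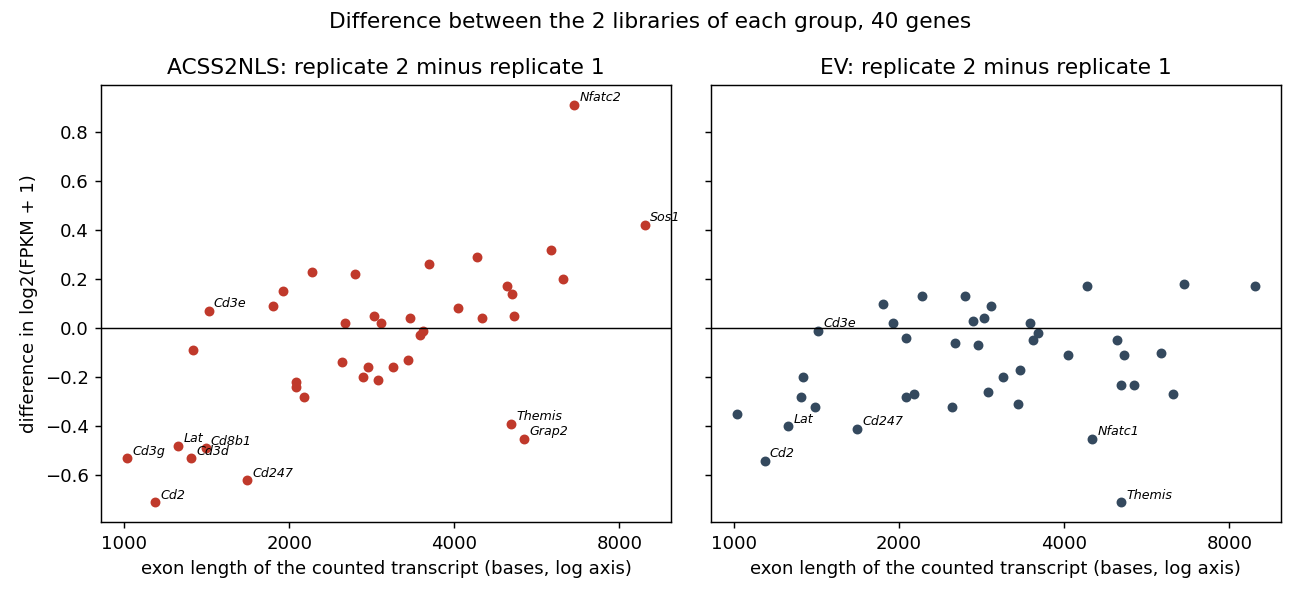
Difference in log2(FPKM + 1) between replicate 2 and replicate 1 of ACSS2NLS (left) and of EV (right) against the exon length of the counted transcript (bases, log axis), 1 point for each of the 40 genes. Short transcripts such as Cd2, Cd3g and Lat lie below 0 in both groups, while Cd3e lies near 0.

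Ratios of genes within 1 library do not move with depth or with a factor common to both genes, and 9 pairs were compared in this way. The ratio of Lck to Fyn was 3.72 and 3.21 in ACSS2NLS, against 4.75 and 4.05 in EV. The ratio of Cd3g to Cd3d was 2.08 and 2.09 in ACSS2NLS, against 2.57 and 2.44 in EV, although each gene varied between replicates. The ratio of Stim1 to Orai1 was 0.202 and 0.232 in ACSS2NLS, against 0.281 and 0.256 in EV. These 3 pairs did not overlap between groups, and all were lower in ACSS2NLS. The other 6 overlapped: Cd8a to Cd8b1, Cd247 to Cd3e, Sla to Sla2, Dgka to Dgkz, Nfatc1 to Nfatc2 and Grap2 to Grb2. Among single genes, the groups did not overlap for 37.4% of those tested, and the smallest p of an exact permutation test of 2 libraries against 2 is 0.333.

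**Figure D5:**
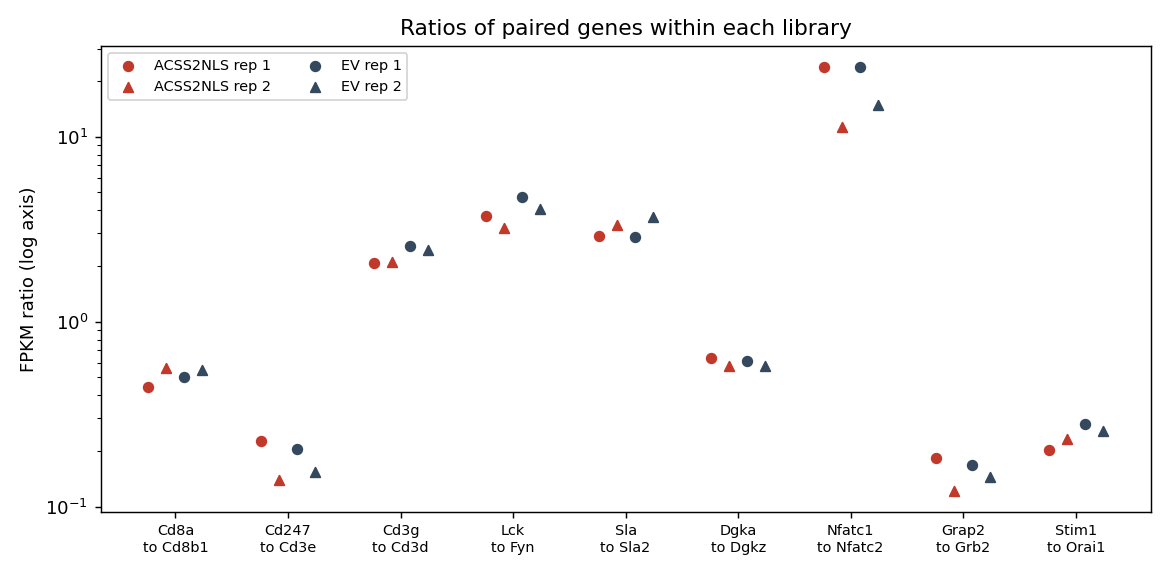
Ratio of FPKM (log axis) for 9 pairs of genes in each library, with ACSS2NLS in red left of EV in dark blue, circles for replicate 1 and triangles for replicate 2. The Lck to Fyn, Cd3g to Cd3d and Stim1 to Orai1 ratios of each ACSS2NLS library lie below those of each EV library.

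The rest of the pathway was read from a further list of 87 names, of which 83 were in the table and 77 were tested. No gene of it passed (limma-trend, 0 of 77), and 5 did with the term for the replicate number. On average 49 (63.6%) were lower, against 46.8% of all genes, and 28 were higher; the median log2 change of the 77 was -0.038. At an unadjusted p under 0.05, 2 were higher (2.6%, against 3.1% of all genes) and 6 lower (7.79%, against 2.87%). Cish, a SOCS-family inhibitor induced by cytokine and TCR signals, was at 6.84 and 8.81 FPKM in ACSS2NLS, against 16.4 and 16.2 FPKM in EV (log2 change -0.98 ± 0.15, limma adjusted p = 0.742). Tespa1, an adaptor of calcium signalling in thymocytes, was at 10.3 and 11.3 FPKM in ACSS2NLS, against 5.55 and 6.63 FPKM in EV (log2 change 0.74 ± 0.14, limma adjusted p = 0.775). Neither passed in this fit. Sit1, a transmembrane adaptor that recruits SHP-2, was at 8.70 and 8.56 FPKM in ACSS2NLS and 13.0 and 12.1 FPKM in EV (log2 change -0.49 ± 0.12). Pik3r1, the p85 alpha regulatory subunit of PI3-kinase, was at 7.43 and 6.89 FPKM in ACSS2NLS and 9.90 and 10.8 FPKM in EV. Dok2, an adaptor that binds the RAS inhibitor RASGAP, was at 53.4 and 45.9 FPKM in ACSS2NLS and 70.0 and 64.2 FPKM in EV. Nck1, which ties CD3 epsilon to the actin cytoskeleton, was at 8.50 and 7.68 FPKM in ACSS2NLS, against 6.06 and 4.55 FPKM in EV (log2 change 0.54 ± 0.17). These 6 were named for their small unadjusted p. Over the whole list, both ACSS2NLS libraries lay above both EV libraries for 9 of 77 genes (11.7%, against 19.3% of all genes) and below for 23 (29.9%, against 18.1%).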

How the data were processed

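RNA-seq libraries were made from tumour-infiltrating CD8+ cells, 2 of them labelled ACSS2NLS and 2 labelled EV. Per the labels' protocols, the RNeasy Plus Micro and SMART-Seq v4 Ultra Low Input kits were used; the tools were HOMER and STAR 2.5.3a, with the build mm10, per the submitters' processing notes. Per the file headers, HOMER counted sense tags on exons of 1 RefSeq transcript per gene. The deposited values are FPKM, scaled by the authors to that transcript's length and to the library's depth, so levels of different genes rest on the transcript counted. The sources used here do not state strandedness of the kit. Columns named Acss2OE and Acss2WT were read as ACSS2NLS and EV, by replicate number; further tag directories named in the header were not analysed here.

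No count model was fitted to FPKM. Totals of 46000000 to 49300000 tags per library were read from the FPKM steps: FPKM times length fell on whole tags for 100% of values up to 50 tags (tolerance 0.1 of a tag, exons of 500 to 2000 bases). Log2(FPKM + 1) of all 9810 genes averaging 1 FPKM or more was compared by limma-trend (R 4.3.3, limma 3.58.1) with two-sided tests, adjusted over all of them by Benjamini-Hochberg and a threshold of 0.05. The function was tested on simulated data, with noise of the same size for every gene and independent between libraries, unlike these libraries. That test does not give the power of this fit for small changes. Intervals are 95%, from limma. Exon overlaps come from GENCODE M21 (GRCm38).

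The members and lists were chosen with earlier results of these data known. Named in full were the 3 chains or kinases with the highest level, the 10 members with the largest log2 change in size and the 6 further pathway genes with the smallest unadjusted p; the other members were named by role. Alternatives were other pseudocounts, filters and scalings, limma without the trend, each library left out, a term for the replicate number, and levels relative to the CD3 chains, added after seeing the data.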

Additional observations from a re-analysis of the deposited data

How the results depend on the processing

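No gene of the 40 passed the threshold under any of the 13 alternatives, and their lowest adjusted p over all settings was 0.131, for Cd5 with limma and a replicate block. Of all genes, 2 passed upward; 1 did without a filter on low values. The fit with a replicate block called 229 genes upward and 172 downward, and 5 further pathway genes: Cish (adjusted p = 0.000144), Tespa1 (0.00336), Sit1 (0.0481), Dok2 (0.046) and Nck1 (0.0476). The labels do not say that the numbers pair libraries; deviations of same-numbered libraries correlated at r = 0.583 over genes, with 2 pairs. Leaving out 1 library gave 0 to 9 genes downward, 6 to 10 genes of the set above and 14 to 26 below without overlap, 11 to 17 higher and 23 to 29 lower in mean, and medians of -0.21 to -0.026 for the set and -0.1 to -0.027 for the further pathway genes. Relative to the CD3 chains, 5 genes of the set lay below without overlap, and the pathway median was 0.028; the cause was not tested.

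The sign of the log2 change held for 23 of 40 genes under every alternative, and 11 others turned only when a library was left out, over these ranges: Cd3d -0.18 to 0.35, Cd3g -0.44 to 0.088, Cd247 -0.4 to 0.22, Cd8b1 -0.35 to 0.15, Cd2 -0.6 to 0.1, Lat -0.35 to 0.12, Grap2 -0.41 to 0.043, Themis -0.25 to 0.45, Nfatc1 -0.3 to 0.15, Nfatc2 -0.33 to 0.57 and Nfatc3 -0.088 to 0.23. The other 6 turned there and elsewhere. Relative to the CD3 chains, Plcg1 was 0.011, Rasgrp1 0.027, Bcl10 0.025 and Cblb 0.063. With quantile normalization Sos1 was -0.0077 and Cblb 0.03, and with median-ratio scaling Ubash3a was -0.00042. Cd3e, counted among the genes whose sign held, was -2.2e-05 with quantile normalization. Their leave-one-out ranges were -0.2 to 0.092 for Plcg1, -0.14 to 0.28 for Sos1, -0.15 to 0.075 for Rasgrp1, -0.12 to 0.034 for Bcl10, -0.037 to 0.05 for Ubash3a and -0.14 to 0.13 for Cblb. Each group had 2 libraries, and the lowest tag count of a gene of the set in any library was 214.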
